A study of Mus musculus with 4 samples.

Results

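The miR-297, miR-466, miR-467 and miR-669 families were followed across androgen suppression and replacement in mouse Sertoli cells, the somatic cells that nurse germ cells in the seminiferous tubule. Members were taken by name alone: every mouse miRNA on the array whose name begins with one of these 4 numbers, with both arms and all star forms, which gave 25 of 567 mouse miRNAs. RNA came from Sertoli cells purified from B6129 male mice, with cells of several mice pooled for an extraction (5 to 7 in the labels, 6 per group in the study's account of the arrays). The Sham group (1 array) carried an empty Silastic tube under the skin and received saline into the abdomen. The Flut+Acy group (2 arrays) received flutamide, a blocker of the androgen receptor, from such a tube, and injected acyline, an antagonist of gonadotropin-releasing hormone that lowers testosterone. The Flut+Acy+T group (1 array) received flutamide and acyline as well, plus testosterone from a tube. The mice were 5 to 7 weeks old, and the labels do not give the length of treatment for the arrays. The labels do not say whether the 2 Flut+Acy arrays came from separate pools of mice, and the study describes 1 pool per group, so they may be repeats of 1 pool and every p-value below measures the spread between these 2 arrays alone. Sham and Flut+Acy+T had no replicate.

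Most of these miRNAs lie in one intron of Sfmbt2, which encodes a Polycomb-group protein, and are produced together with its transcript. In the mouse, Sfmbt2 is imprinted and expressed from the paternal allele in the early embryo and the placenta, and its miRNA cluster is best known from embryonic stem cells and placenta. The hairpins arose by repeated duplication of a short stretch rich in CA and UG repeats, and so many of the mature forms differ by only a few bases. A miRNA acts by pairing its 5′ end with target mRNAs, and star or passenger forms are the arm of a hairpin that is usually less abundant.

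The repetitive make-up of the families can be seen in 5 sequences, all from loci outside chromosome 2. Mature sequences of the array members themselves were not available. They are the hairpin of Mir297-1, which is also called Mir297a-1 and belongs to the miR-297a of the array, and mature forms of 4 relatives. The array had no probe set for any of the 4 relatives. In the first 3, capitals mark the longest run that the relative shares with the hairpin (in the hairpin, the run shared with miR-466j), which was 18 bases for miR-466j and 11 for miR-467h. In the last 2, capitals mark the 13 bases that miR-466i-3p and miR-467f share. All are RefSeq sequences on GRCm38.p6, written 5′ to 3′.
Mir297-1 hairpin: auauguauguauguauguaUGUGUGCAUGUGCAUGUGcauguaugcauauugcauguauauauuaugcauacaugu
miR-466j: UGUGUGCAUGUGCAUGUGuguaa
miR-467h: auaagUGUGUGCAUGUauaugu
miR-466i-3p: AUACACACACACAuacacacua
miR-467f: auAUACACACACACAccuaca
The hairpin lies on the minus strand of chromosome 7, from 10958437 to 10958512, whereas the array places its miR-297a on chromosome 10. A run of 8 alternating letters, ACACACAC or UGUGUGUG, stood in 6 of the 8 mature sequences of these families in the table and in 11 of all 1679 mature mouse sequences (0.655%). Only the strand of the mature RNA was searched.

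In the array files, which use mouse build mm9, 24 of the 25 members lay within 47.9 kb of chromosome 2, from 10388586 to 10436549. Their probe targets formed a run with no other miRNA of the array between them. The exception was miR-297a, placed on chromosome 10 from 42855314 to 42855332. In the RefSeq table of GRCm38.p6, 82 loci bore a name of the 4 families, and 72 of them lay within the bounds of Sfmbt2: 5 of miR-297, 24 of miR-466, 14 of miR-467 and 29 of miR-669. A member on the array can therefore stand for several copies. Mir669a alone had 12 numbered copies inside Sfmbt2, and Mir467a had 10.

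Several probe sets could not separate named miRNAs. The probes of miR-466e-3p (chr2:10398313-10398329) also list miR-466a-3p, miR-466b-3p, miR-466b-3-3p and miR-466c-3p as targets, so 5 named miRNAs share this value. The probes of miR-467a* also list miR-467d*, and those of miR-297b-3p list miR-297a* and miR-297c*. The probes of miR-669b list miR-297a, and among those of miR-297a miR-669b is listed. The targets of miR-467a and miR-467b overlap by 16 bases, and how far each probe set reads the other miRNA was not tested.

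Each member was read by 20 spots, from 2 to 4 nested probes of 13 to 21 bases. The total gene signal, which the scanner software sums over a miRNA's probes, is given below in its intensity units with the software's own error. Different miRNAs are read by different probes, so the order of their signals is not an order of abundance. Detection means the software's detection flag. By that flag the family was mostly undetected on Sham and partly present after androgen suppression: 5 of 25 members were detected on Sham (20%). After androgen suppression 15 were detected in the first replicate (60%) and 13 in the second (52%). With testosterone added back, 1 was detected (4%). Of all 567 mouse miRNAs, 193, 275, 270 and 102 were detected in the same order, so on both Flut+Acy replicates the members' share was a little above the 48.5% and 47.6% of the whole array, and on the other arrays below it. The 5 members detected on Sham were also detected in both Flut+Acy replicates. No member was detected on all 4 arrays.

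The number of probes moved with detection. On Flut+Acy 1, all 11 members with 2 probes were detected, against 3 of 13 with 4 probes. Among the other miRNAs of the array the same shares were 69.6% of 276 and 24.3% of 251. On Flut+Acy 1 the longest probe was the brightest in 14 of 15 detected members, and on Flut+Acy 2 in all 13. In miR-467a* the probe of 17 bases read 27.2 and 32.1 units on the Flut+Acy arrays, and the nested probe of 16 bases read 2.31 and 3.07. The part of probe number and length in which members were detected was not tested.

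**Figure D1:**
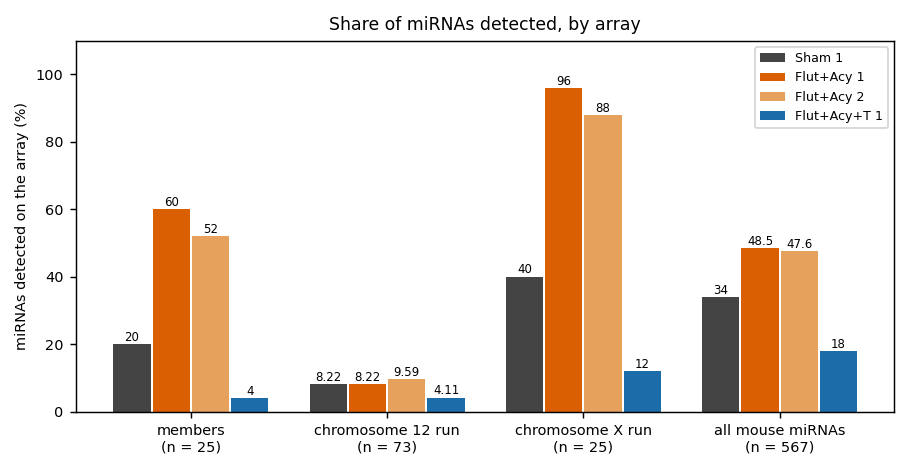
Percentage of miRNAs with the detection flag on each array (vertical axis), for the 25 members, for 73 miRNAs of a chromosome 12 run and 25 of a chromosome X run, and for all 567 mouse miRNAs. The members' share was lowest on Flut+Acy+T (4%) and highest on Flut+Acy 1 (60%), and the chromosome X run had the highest shares on the Flut+Acy arrays.

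Facts of the whole series bear on these values. All 4 arrays shared 1 slide and 1 scan. With 1 array each for Sham and Flut+Acy+T, an effect of the array or the pool cannot be told apart from that of the group. In the order Sham, Flut+Acy 1, Flut+Acy 2, Flut+Acy+T, the software flagged 0, 2, 4 and 535 spots as non-uniform. Negative control probes had standard deviations of 2.97, 2.72, 7.45 and 1326 units in that order. Of the markers, miR-202-3p, a gonadal miRNA of Sertoli cells, was found by the flag in Sham and in each Flut+Acy replicate, and neither arm of miR-202 was detected on Flut+Acy+T. Germ cell miRNAs (miR-34b, miR-34c and miR-449; 7 on the array) were detected in 3 cases on Sham, 5 on each Flut+Acy array and 3 on Flut+Acy+T, with summed signals of 477, 7183, 7463 and 3472 units. The study lists miR-34b-5p, miR-34c, miR-34c* and miR-449a among its altered miRNAs of purified Sertoli cells, so these signals cannot be assigned to a cell type. The germ cell list was thus brighter on Flut+Acy than on Sham before scaling, and its part in the members' values was not tested. The other lists were summed in the order Sham, Flut+Acy 1, Flut+Acy 2, Flut+Acy+T. Both arms of miR-202 gave 104, 334, 366 and 8.25 units. Red blood cell miRNAs gave 107, 134, 148 and 290 units, and white blood cell miRNAs 135, 271, 304 and 621. On Flut+Acy+T 0 miRNAs of either blood list were detected, so these sums there are not measured rises. Endothelial miRNAs gave 649, 1986, 2155 and 4013 units, and those of muscle and peritubular cells 1785, 2581, 3094 and 4571. Every list was thus brighter on Flut+Acy than on Sham, as was the array: positive signals of all 567 miRNAs summed to 57940, 139602 and 161460 units on these 3 arrays. In proportion, the germ cell, miR-202 and endothelial lists rose by more than that sum. The red blood, white blood and muscle lists rose by less. The part of the lists in the members' values was not tested. Fewer cells of a type and less RNA per cell cannot be told apart in such pooled RNA.

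The first comparison asked which members differ when androgen action is withdrawn. For all 15 members detected anywhere, each Flut+Acy replicate gave more signal than Sham. All 15 were detected on Flut+Acy 1 and only 5 on Sham, so this direction was partly set by how members entered. The 10 members detected nowhere went both ways. The Flut+Acy arrays were also brighter as a whole: over the 189 miRNAs that passed the flag on these 3 arrays, the median signal ratio was 2.91. What a member shows against Sham thus depends on how the arrays are scaled, and the signals are given first.

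**Figure D2:**
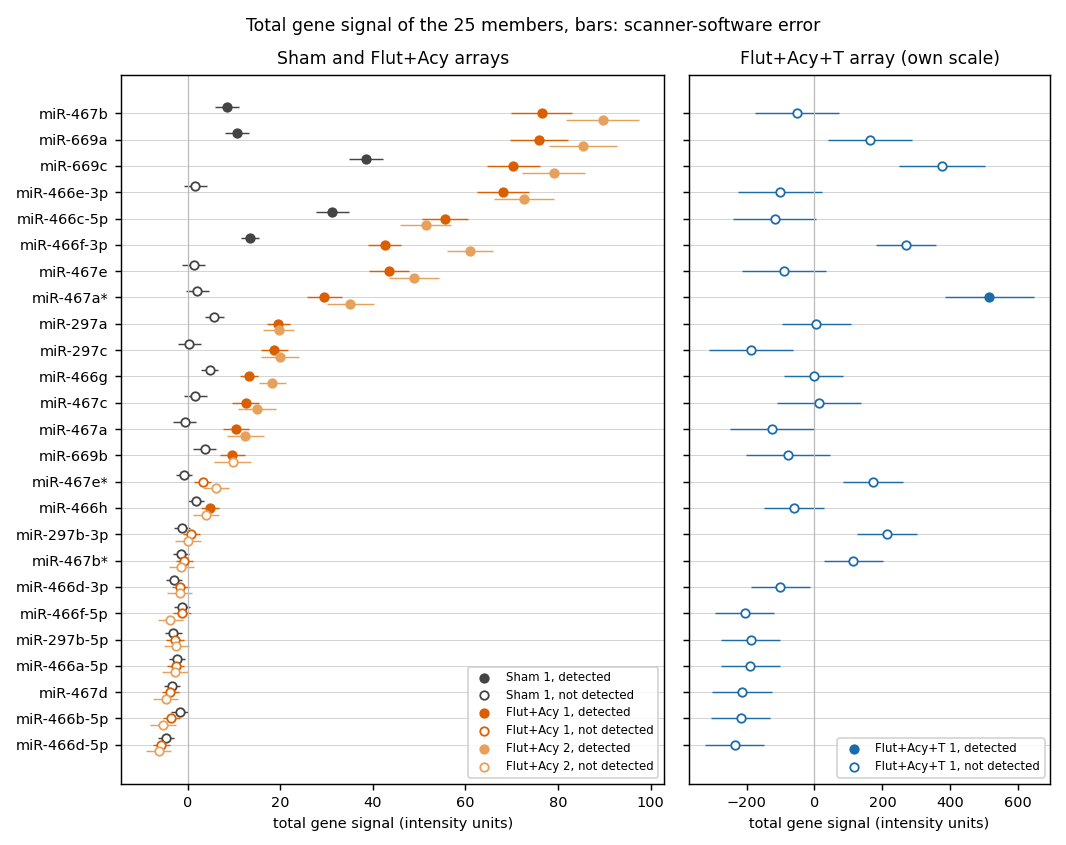
Total gene signal (horizontal axis, intensity units) of the 25 members on each array, with the scanner software's error as bars. Filled points mark detected members, and Flut+Acy+T has its own scale. Outside Flut+Acy+T no error exceeds 7.88 units, and on Flut+Acy+T they span 87.2 to 132 units, for each member above its own signals on Flut+Acy.

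Several miR-467 members were near background on Sham and well above it on Flut+Acy. miR-467e gave 1.31 ± 2.46 units on Sham, 43.5 ± 4.27 on Flut+Acy 1 and 49.0 ± 5.42 on Flut+Acy 2. It was not detected on Sham, where its signal lay within its error of 0, and clearly present on both Flut+Acy arrays. miR-467b gave 8.54 ± 2.56, 76.5 ± 6.60 and 89.7 ± 7.88 units in the same order. It was the brightest member on Flut+Acy and was detected on all 3 of these arrays. miR-467a* gave 2.10 ± 2.48, 29.5 ± 3.80 and 35.1 ± 5.04 units, and was detected on the Flut+Acy arrays only among these 3. miR-467a and miR-467c, named after their values were seen, were not detected on Sham either. On Flut+Acy 1 they gave 10.4 ± 2.76 and 12.5 ± 2.90 units, and both were detected in each Flut+Acy replicate.

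Among the miR-466 members the picture was mixed. miR-466e-3p, the one member that the study lists among its altered miRNAs, gave 1.69 ± 2.47 units on Sham, 68.1 ± 5.55 on Flut+Acy 1 and 72.7 ± 6.47 on Flut+Acy 2. Its 2 Flut+Acy arrays stood far above Sham and close to each other. miR-466c-5p gave 31.3 ± 3.54, 55.6 ± 4.94 and 51.4 ± 5.45 units. It was one of the 2 members that were already bright on Sham. miR-466f-3p gave 13.5 ± 2.02, 42.5 ± 3.56 and 61.1 ± 4.97 units, and its 2 Flut+Acy signals differed by 3.04 times their combined error, the most of any member. miR-466g was faint throughout, at 4.76 ± 1.77, 13.3 ± 2.02 and 18.3 ± 2.97 units. Of the other 12 members detected on both Flut+Acy arrays, 10 had a pair that differed by less than 1 combined error.

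Of the miR-669 members, miR-669c was the brightest of all 25 on Sham. It gave 38.6 ± 3.73 units there, 70.4 ± 5.65 on Flut+Acy 1 and 79.1 ± 6.81 on Flut+Acy 2. miR-669a was fainter on Sham, at 10.8 ± 2.59 units, and reached similar signals on Flut+Acy, at 75.9 ± 6.29 and 85.4 ± 7.33. Both were detected on all 3 arrays, and in both the Sham signal lay below both Flut+Acy signals. The miR-297 forms were dim: miR-297c gave 0.406 ± 2.46, 18.7 ± 2.96 and 19.9 ± 4.13 units. miR-297a gave 5.77 ± 2.05, 19.6 ± 2.46 and 19.7 ± 3.38. Neither passed the detection flag on Sham.

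The 5 members that passed the flag on all 3 of these arrays can be set against the other miRNAs of that kind without any scaling. The geometric mean of the Flut+Acy signals was 9.70 times the Sham signal for miR-467b and 7.48 times for miR-669a, larger than for 159 and 151 of the 189 miRNAs. For miR-466f-3p the ratio was 3.78, larger than for 122 miRNAs. miR-669c (1.93) and miR-466c-5p (1.71) stood below the median ratio, with 54 and 41 miRNAs under them. The 2 brightest members on Sham thus differed less between the arrays than most detected miRNAs, and the dimmer 3 differed more. The probes within a member differed the same way: log2 ratios were 3.16 and 3.32 for the 2 probes of miR-467b, 2.63 and 3.09 for miR-669a, 0.60 and 1.21 for miR-466c-5p and 0.76 and 1.16 for miR-669c. Of the 4 probes of miR-466f-3p, 3 read above 0 on Sham and each of these 3 was brighter on both Flut+Acy arrays.

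**Figure D3:**
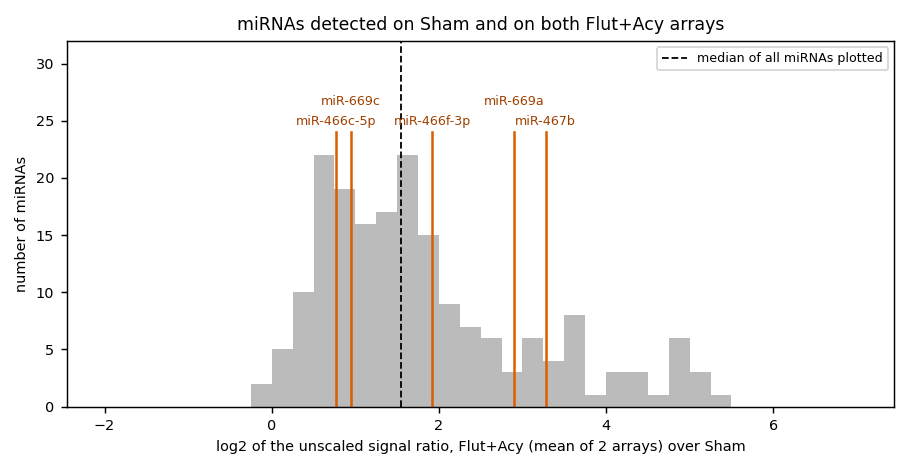
Number of miRNAs (vertical axis) by log2 of the unscaled signal ratio of Flut+Acy over Sham (horizontal axis), for the 189 miRNAs with the flag on Sham and in both Flut+Acy replicates. Orange lines mark the 5 members; miR-466c-5p and miR-669c lie left of the dashed median, and miR-466f-3p, miR-669a and miR-467b right of it.

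For the comparison across all miRNAs, signals were quantile normalized over the 4 arrays, raised to a floor of 5.46 units and compared on the log2 scale with limma. Of the 15 members detected on either side, 5 stood at least 2-fold above Sham in Flut+Acy (33.3%) and 3 at least 2-fold below it (20%). None of the 5 was detected on Sham, so each entered the count through Flut+Acy alone. Among the 5 members detected on all 3 arrays the counts were 0 and 1. Over all 15 they became 8 and 0 with the 75th percentile over miRNAs that all 4 arrays detected, 13 and 0 with no scaling, and 0 and 0 with normexp background correction. Over all 283 miRNAs detected on either side the shares were 22.6% and 16.6%. The members' median log2 difference was 0.42, beside -0.18 over all 283. Over the 5 members detected on all 3 arrays it was -0.37, so its sign rests on the 10 that entered through Flut+Acy. In limma, 9 of the 15 members passed an adjusted p of 0.05, 7 higher and 2 lower, which is 60% beside 54.0% of all 298 miRNAs fitted (25.5% higher and 28.5% lower). The 9 became 15 with no scaling, 3 of 5 with the stricter filter, 2 with no filter, and 0 with the Tukey comparison named in the methods after adjustment (4 unadjusted). The differences between these shares and those of the array were not tested.

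The higher group held miR-467e, miR-466e-3p, miR-297c, miR-467a and miR-467a*, none of them detected on Sham. On the log2 scale miR-467e was 3.33 ± 0.05 higher (SE; limma adjusted p = 0.0114). miR-466e-3p was 2.94 ± 0.10 higher (limma adjusted p = 0.0195). miR-297c was 2.57 ± 0.14 higher (limma adjusted p = 0.0263) and miR-467a* 1.35 ± 0.07 higher (limma adjusted p = 0.0250). miR-467a, at 1.65 ± 0.23, did not pass (limma adjusted p = 0.0691). Against the lowest normalized signal that was detected on Sham, and its own signal where that was higher, the mean Flut+Acy level was 3.96-fold higher for miR-466e-3p. It was 2.90-fold higher for miR-467e, 2.15-fold for miR-467a* and 1.37-fold for miR-297c. These ratios are not lower bounds, because miR-297a, miR-466g and miR-669b were undetected on Sham at normalized signals above that lowest one. For miR-467a, miR-467c, miR-297a and miR-466g, also found in both Flut+Acy replicates and not on Sham, the Flut+Acy level lay below the reference.

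Of the members detected on Sham, miR-467b was 0.76 ± 0.03 higher (limma adjusted p = 0.0221) and miR-669a 0.42 ± 0.03 higher (limma adjusted p = 0.0348). miR-467c also passed, at 0.94 ± 0.08 (limma adjusted p = 0.0424). The direction of these 3, and of the 5 in the higher group, was the same under all 9 ways of scaling, flooring and correcting the background that were tried. The 5 and miR-467c were not detected on Sham and entered through Flut+Acy, so this stability is no separate support for their direction. miR-669c was 0.97 ± 0.01 lower (limma adjusted p = 0.00851), and miR-466c-5p 1.08 ± 0.23 lower without passing (limma adjusted p = 0.107). Both were higher, by 0.95 and 0.77, when the arrays were not scaled to each other, and lower in all other settings. miR-466f-3p (-0.37), miR-297a (-0.39) and miR-466g (-0.56) did not pass, and their sign turned with the scaling.

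The lower group needs its signals beside it. Only miR-466c-5p of its 3 members was detected on Sham. miR-466h (-1.50) and miR-669b (-1.30), named because the group holds them, were detected on Flut+Acy 1 alone. Their signals were 1.89, 4.87 and 3.93 units and 3.70, 9.64 and 9.72 units on Sham and the 2 Flut+Acy arrays. The signals were thus higher on Flut+Acy in both, and the normalized values lower. For miR-466h both normalized Flut+Acy values were set to the floor, which left no spread between them, and its limma adjusted p of 0.00449 rests on that tie.

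**Figure D4:**
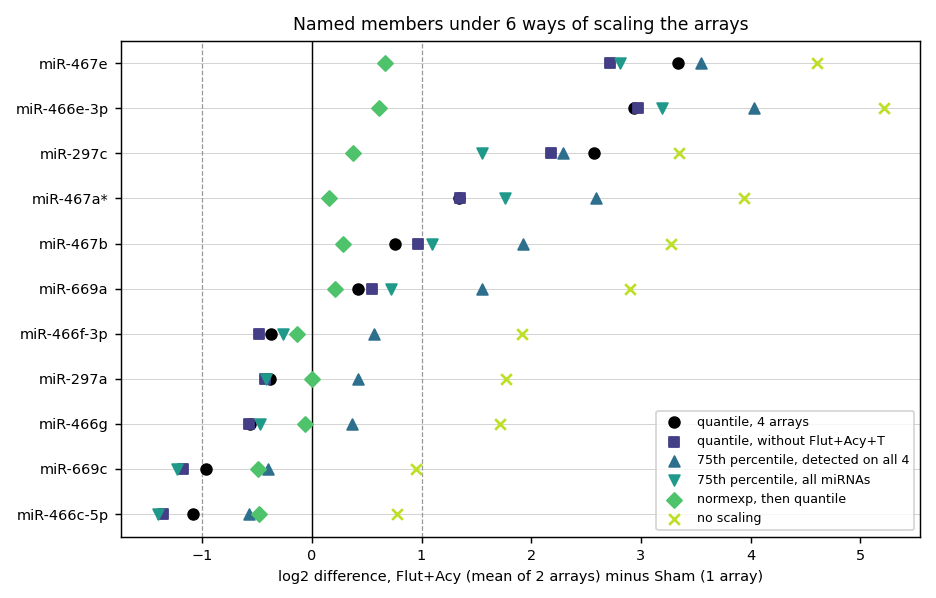
Log2 difference between Flut+Acy and Sham (horizontal axis) of the 11 named members that could be fitted, under 6 ways of scaling the arrays (symbols); dashed lines mark 2-fold. miR-467e, miR-466e-3p, miR-297c, miR-467a*, miR-467b and miR-669a lie right of 0 in all 6, and miR-669c and miR-466c-5p lie left of 0 except without scaling.

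The second comparison asked what testosterone replacement did to the same members, and here the Flut+Acy+T array set the limit. Its lowest detected signal was 238 units, against 2.67 on Sham and 0.766 and 1.11 in the Flut+Acy replicates. The highest signal of any member on a Flut+Acy array was 89.7 units. Every one of the 25 members had Flut+Acy signals under the software's error for it on Flut+Acy+T. Before scaling, no member at its Flut+Acy signal would have reached the lowest signal detected on that array.

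miR-466e-3p read -101 ± 123 units on Flut+Acy+T, miR-467e -90.7 ± 123 and miR-467b -50.7 ± 123. miR-466c-5p read -118 ± 123 and miR-297c -186 ± 123 units. Each of these values lay below 0, and 16 of the 25 members did so in all. miR-669a read 164 ± 124 units, miR-466f-3p 269 ± 88.7 and miR-669c 374 ± 127, none of them detected.

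Of the 15 members detected on either side, 10 came out at least 2-fold lower on Flut+Acy+T than on Flut+Acy and 1 at least 2-fold higher, where all miRNAs of that kind gave 50.8% and 17.5%. limma passed 11 members, beside 75.2% of all 298 miRNAs fitted; 9 were lower and 2 higher, beside 53.7% and 21.5%. None of the 10 lower members was detected on Flut+Acy+T. Against the lowest normalized signal detected there, the Flut+Acy level was 1.05-fold higher for miR-467b and 1.02-fold higher for miR-669a, and higher for no other member. The direction of miR-669a turned with the scaling. Before scaling, that lowest signal of 238 units lay above every Flut+Acy signal of a member, so neither ratio is a lower bound. The log2 differences of miR-467b (-4.32 ± 0.03, limma adjusted p = 0.00343), miR-466e-3p (-4.10 ± 0.10, limma adjusted p = 0.00837) and miR-467e (-3.65 ± 0.05, limma adjusted p = 0.00586) are differences to the floor and not measured falls. Of the 8 members at least 2-fold apart between Flut+Acy and Sham, 3 lay within 2-fold of Sham on Flut+Acy+T. These were miR-297c, miR-467a and miR-467e, none of them detected on either array. miR-297c and miR-467a were set to the floor on both arrays and miR-467e on Flut+Acy+T, so their nearness to Sham was set by the floor. The count became 7 of 13 with no scaling, 5 of 9 from spot signals and 2 of 8 with a floor of 1 unit. With normexp 0 members were 2-fold apart. The share over all miRNAs is not given, so the count shows nothing particular to these members.

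The exception was miR-467a*, the only member detected on Flut+Acy+T. It gave 514 ± 132 units there, against 29.5 and 35.1 on Flut+Acy and 2.10 on Sham. On the log2 scale it was 2.53 ± 0.07 higher than in Flut+Acy (SE; limma adjusted p = 0.00919) and stayed higher under every alternative run, by at least 1.11. All of these runs used the same Flut+Acy+T array, so they are no separate support. The SE and p-value carry only the spread of the Flut+Acy pair. Negative control probes on Flut+Acy+T had a standard deviation of 1326 units, above this signal. The 20 spots of miR-467a* on that array ran from 84.6 to 1223 units with a median of 310, 3 of them well above background and 2 flagged as non-uniform. Its 2 probes read 361 and 154 units there, a smaller ratio between them than on the Flut+Acy arrays. miR-669c, at 0.88 ± 0.01 (limma adjusted p = 0.00519), passed as higher without being detected. In the authors' value table its difference was 0.22 and did not pass (limma adjusted p = 0.154).

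On no array were the other 10 members detected, and no fit was made for them. They were miR-297b-3p, miR-297b-5p, miR-466a-5p, miR-466b-5p, miR-466d-3p, miR-466d-5p, miR-466f-5p, miR-467b*, miR-467d and miR-467e*. The 5p form of miR-297b gave -3.05, -2.72 and -2.45 units on Sham and the 2 Flut+Acy arrays, and miR-466a-5p -2.25, -2.59 and -2.73. miR-466b-5p gave -1.75, -3.56 and -5.34 units. The 3p form of miR-297b gave -1.19, 0.819 and 0.0913 units. On Flut+Acy+T it gave 214 ± 88.5 units, 2.42 times its error. miR-467e* gave 6.10 ± 2.81 units on Flut+Acy 2, 2.17 times its error, and 173 ± 88.7 on Flut+Acy+T. At this signal over background their presence was not detectable, which does not show that they were absent.

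Of 6 pairs of neighbouring members less than 60 bases apart by their starts, some differed in detection. miR-466f-3p was detected on 3 arrays and miR-466f-5p, 26 bases away, on none. miR-467e was detected on 2 arrays and miR-467e*, 16 bases away, on none. The same held for miR-297c and miR-297b-3p, and for miR-467a and miR-467b*, each pair 20 bases apart. miR-467b and miR-467a, which overlap, were both detected in each Flut+Acy replicate, and neither arm of miR-466d was detected on any array. The undetected member of each unequal pair was read by 4 probes, as was miR-466f-3p. Across the 14 members with a value on chromosome 2, the log2 difference between Flut+Acy and Sham was set against position. Spearman's rho was -0.09 and Pearson's r -0.01, as a description across miRNAs of the same arrays. A member can stand for several copies, and the position used is that of a single copy: miR-467a* was placed at 10422504 and miR-467a at 10402888. These values and the pairs above therefore cannot show whether position matters.

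**Figure D5:**
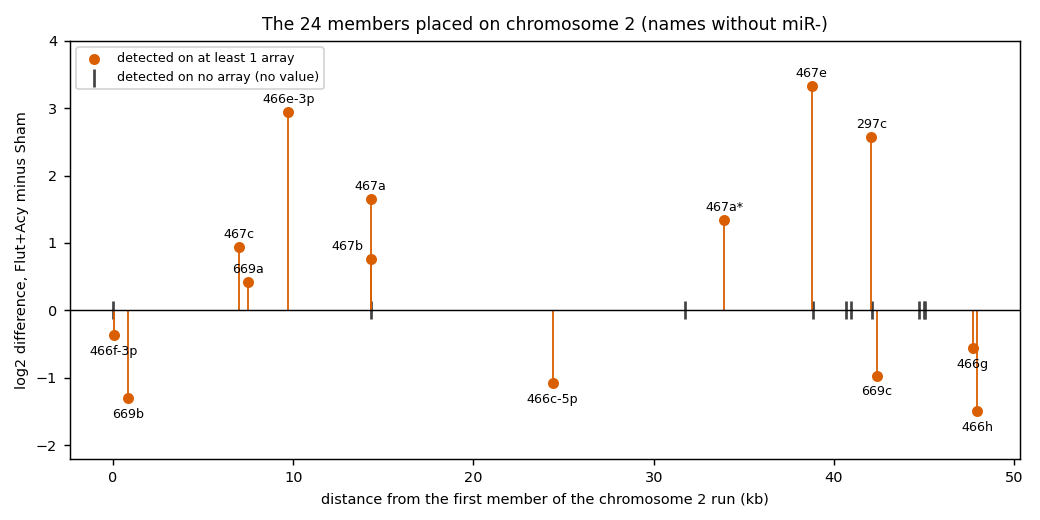
Log2 difference between Flut+Acy and Sham (vertical axis) of the 14 fitted members on chromosome 2 by distance from the first member (horizontal axis, kb, mm9); ticks mark the 10 members detected on no array. Values above and below 0 both occur along the 47.9 kb, and every value below 0 was above 0 without scaling of the arrays. Each member is drawn at the coordinate the array gives it, though it can stand for copies elsewhere.

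Another imprinted run of miRNAs and the X-linked run offer a scale. The chromosome 12 run that holds miR-379 had 73 miRNAs, of which 6 were detected on Sham and 6 and 7 on Flut+Acy. Of its 7 miRNAs detected on either side, 0 stood 2-fold or more above Sham in Flut+Acy and 4 below it, with a median log2 difference of -1.41. Without scaling, 5 of its miRNAs had a median signal ratio of 2.04, beside 2.91 over all miRNAs of that kind, so its direction also turned with the scaling. The chromosome X run that holds miR-743a had 25 miRNAs, with 10 detected on Sham and 24 and 22 on Flut+Acy. There 19 of 24 stood 2-fold or more above Sham, and 10 had an unscaled signal ratio with a median of 31.1, beside 3.78 for the 5 members. The 3 runs were set side by side as descriptions, and the differences between them were not tested.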

How the data were processed

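The deposited files were 1 Agilent Feature Extraction table per array (version 9.5.3.1, mouse build mm9), each 1 colour, plus a table of the authors' processed values. The intensity values, as deposited by the authors, were total gene signals that the software sums over background-subtracted probes, not normalized between arrays. The methods describe another Agilent array, so the files' own headers were followed. The authors' value table holds intensity on a linear scale; the methods state quantile normalization in MATLAB.

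Signals were quantile normalized over the 4 arrays, floored at 5.46 units (the same floor rule gave a value below 0 for the authors' table, where 1 unit was used), and log2 transformed. limma 3.58.1 (R 4.3.3) was fitted over 298 mouse miRNAs detected on at least 1 array, with 3 groups and 1 residual degree of freedom; p-values were Benjamini-Hochberg adjusted over all of them. The fit was also run on simulated data with equal noise on all 4 arrays. Flut+Acy+T was far noisier here, so that run does not check these p-values. The prior standard deviation was 0.01 log2 units and 55 miRNAs had tied Flut+Acy values, so small adjusted p-values rest on very small spreads. Each group came from the sample titles. Medians and 2-fold counts cover members detected on at least 1 array of either group; figures used matplotlib 3.10.9.

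Members, lists and tests were chosen with earlier results of these data known. Named members were miR-466e-3p; the largest rises and falls among members with the flag on Sham and in each Flut+Acy replicate; members detected on all 4 arrays (none); the 5 brightest on Sham; up to 6 detected on both Flut+Acy arrays and not on Sham; and up to 4 detected nowhere. The number of arrays limits the precision. Alternatives covered scaling, background, floor, filter, the authors' table, leaving out an array, and an analysis of variance with Tukey's comparison. The authors' own comparisons were not used.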

Additional observations from a re-analysis of the deposited data

How the results depend on the processing

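For Flut+Acy against Sham, the median log2 difference over all miRNAs detected on either side was -0.18 with quantile normalization, 0.40 with the 75th percentile over miRNAs that all 4 arrays detected, -0.34 with that over all mouse miRNAs and 1.75 with no scaling. For the members, the counts at least 2-fold higher and lower (5 and 3) became 8 and 0 with the first percentile, 13 and 0 with no scaling, 0 and 0 with normexp, and 0 and 1 among the 5 members left by the stricter detection filter. Their median of 0.42 became 1.53 and 0.72 with the 2 percentiles, 2.59 with no scaling, 0.16 with normexp, -0.37 with the stricter filter, 0 with no filter and 0.54 with normalization without the Flut+Acy+T array, an alternative chosen after seeing the data. Members passing limma (9) became 15 with no scaling, 3 with the stricter filter and 2 with no filter, where 314 of 567 miRNAs had tied Flut+Acy values. With Tukey's comparison 4 passed unadjusted and 0 after Benjamini-Hochberg adjustment. Without Flut+Acy replicate 1 or 2, 3 and 1 members were at least 2-fold lower; the lone array left gives no test.

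For Flut+Acy+T against Flut+Acy, 3 members were at least 2-fold higher with the first percentile and 4 with no scaling or no filter, where 1 had been, and the 10 lower became 1 with normexp and 0 with the stricter filter, which left miR-467a* alone (median 2.53, 1 passing limma). The median of -1.65 became -1.53 and -1.06 with the percentiles, -2.35 with no scaling, -1.02 from spot signals, -0.29 with normexp, 0 with no filter, -3.38 with a floor of 1 unit and -1.89 in the authors' table. It ran from -1.81 to -1.50 without either Flut+Acy replicate. With Tukey's comparison 6 passed unadjusted and 0 adjusted. By total signal above 3 times its error, 2 members were detected on Flut+Acy+T.

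Signs turned for miR-297a (0.42 with the first percentile, 1.77 with no scaling and 0.0031 with normexp), miR-466f-3p (0.57 and 1.92 with the first 2 of these), miR-466g (0.36 and 1.71), and, with no scaling alone, miR-466c-5p (0.77) and miR-669c (0.95). Against Flut+Acy, miR-669a turned to 0.50 and 1.02. The limma calls of miR-467e, miR-466e-3p, miR-297c, miR-467a*, miR-467b and miR-669a against Sham were lost with no filter, that of miR-297c also from spot signals, that of miR-669a in the authors' table, and that of miR-669c with the first percentile. Against Flut+Acy, the calls of miR-297a, miR-297c, miR-466c-5p, miR-466g and miR-669a were lost with no filter, those of miR-297a with normexp and miR-297c from spot signals, and that of miR-669c in the authors' table. Where no cause is given, the cause was not tested. Signals near the background limit what can be said of most members. No paired analysis was possible because only the Flut+Acy arrays carry replicate numbers in the labels.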
